A study of Schizosaccharomyces pombe with 9 samples.

Results

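The data described here come from the pair of arrays hybridised with RNA of fission yeast (*Schizosaccharomyces pombe*) deletion strains labelled *pab1*Δ and *sec65*Δ, set against the array of the wild type (WT) strain. They were 2 of 8 deletion arrays and 1 WT array, 9 arrays in all, and each genotype had 1 array. The deletions came from a haploid deletion library, but the study placed both in its cytometry class with a strong peak of 4C DNA content. The study proposes that strains of this class had become diploid. The WT array is labelled as strain SP286 diploid with the genotype h+ ade6-M210 ura4-D18 leu1-32. The labels give no strain for the deletions, so a difference of strain or ploidy and the deletion itself cannot be told apart in any ratio to WT. All cells were untreated and harvested in exponential growth at an OD600 of 0.5 to 1.0. Of 10928 probe sets on the Affymetrix Yeast Genome 2.0 array, 2917 had 1 symbol of a fission yeast gene in the array annotation, and these stood for 2899 genes.

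Pab1 is a regulatory subunit of protein phosphatase 2A (PP2A), the phosphatase that removes phosphates placed by mitotic and nutrient-sensing kinases. Cells without it are known for defects in shape and septation. Sec65 is a protein of the signal recognition particle, which takes ribosomes making secreted or membrane proteins to the endoplasmic reticulum (ER). At the end of the fission yeast cycle, an actomyosin ring guides a septum of glucans, and glucanases then dissolve its middle layer so that the daughter cells part. A separate wave of transcription, driven by the factor MBF, switches on genes for DNA replication at the G1/S boundary.

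Neither array had lost the probe set signal of its deleted gene. Where these probe sets lie relative to the deleted sequence is not known. The *pab1* signal was 1170.1 in the *pab1*Δ-labelled array and 1954 in the *sec65*Δ-labelled array, against 1922 in WT. It was the lowest of the 9 arrays under its own label, where the other 6 deletions had 1524 to 2076, but still 0.609 times the WT level. The *sec65* signal was 2671 under the label *sec65*Δ and 4029 under *pab1*Δ, against 3936 in WT. It too was the lowest of the 9 arrays under its own label, at 0.679 times WT, beside 3479 to 5316 in the other 6 deletions. The gene next to *pab1* with a named probe set, *yth1*, had ratios to WT of 0.981 and 0.895 in the *pab1*Δ- and *sec65*Δ-labelled arrays. The genes beside *sec65*, *prp18* and *lsm2*, had ratios of 1.11 and 1.06 in the *pab1*Δ-labelled array, and of 1.13 and 1.20 in the *sec65*Δ-labelled array. Because the loss of either transcript could not be shown, the 2 arrays are called by their labels throughout.

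The 2 arrays were the closest of all 36 pairs of arrays in the series. The standard deviation (SD) of the difference in log2 signal over the 2899 genes was 0.144 between the *pab1*Δ- and *sec65*Δ-labelled arrays. The next closest pair, *pab1*Δ with *ash2*Δ, had an SD of 0.294. Against WT the SD was 0.313 for the *pab1*Δ-labelled array and 0.295 for the *sec65*Δ-labelled array, and the highest of the 36 was 0.627. The 2 deletions are not replicates, and no labelled batch was available to set beside this value. Without replicates no test was made, and a ratio is a comparison of 2 arrays.

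**Figure D1:**
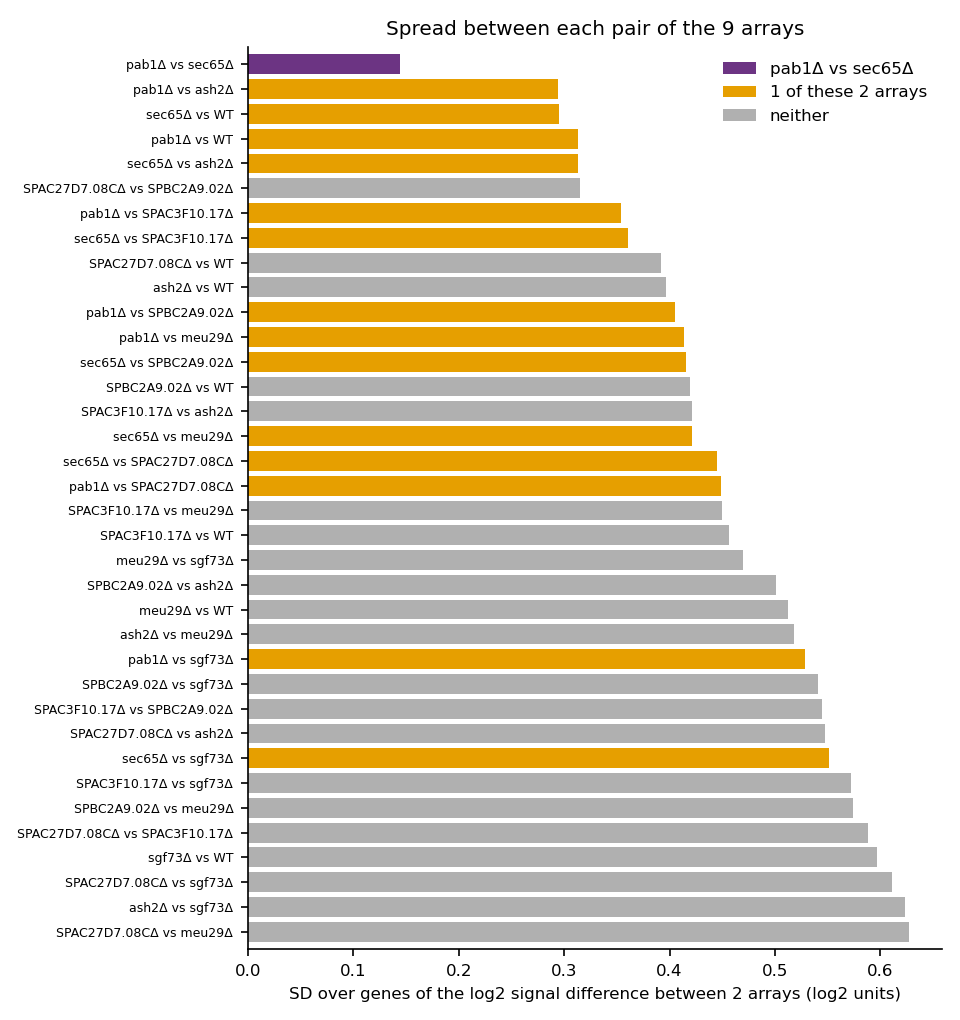
Standard deviation over 2899 genes of the difference in log2 signal (x axis, log2 units) for each of the 36 pairs of arrays (y axis, closest pair at the top). The bar of *pab1*Δ with *sec65*Δ ends at 0.144, and the next ends at 0.294.

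A signal is the deposited value brought back to the linear scale, and it has no absolute unit. A gene was counted as higher or lower where its ratio was at least 2 or at most 0.5 and at least 1 of the 2 arrays lay above background, the level below which 95% of the array's budding yeast probe sets fell. That level was a signal of 38.4 on the *pab1*Δ-labelled array and 36.2 on the *sec65*Δ-labelled array, against 38.3 on the WT array. In the *pab1*Δ-labelled array, 20 of 2870 measured genes (0.697%) were at least 2-fold higher than in WT and 19 (0.662%) at least 2-fold lower. In the *sec65*Δ-labelled array, 19 of 2873 (0.661%) were higher and 20 (0.696%) lower. Of 2869 genes measured in both, 15 (0.523%) were higher in both arrays and 16 (0.558%) lower in both. Both ratios have the same WT array, so their overlap is not independent. The 31 shared genes were 31 of 39 in each array, and none was past 2-fold in opposite directions. The median ratio over all genes was 1.01 in the *pab1*Δ-labelled array and 1.02 in the *sec65*Δ-labelled array. The scaling of the deposited values is not known, so these medians cannot show whether RNA per cell differed as a whole.

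**Figure D2:**
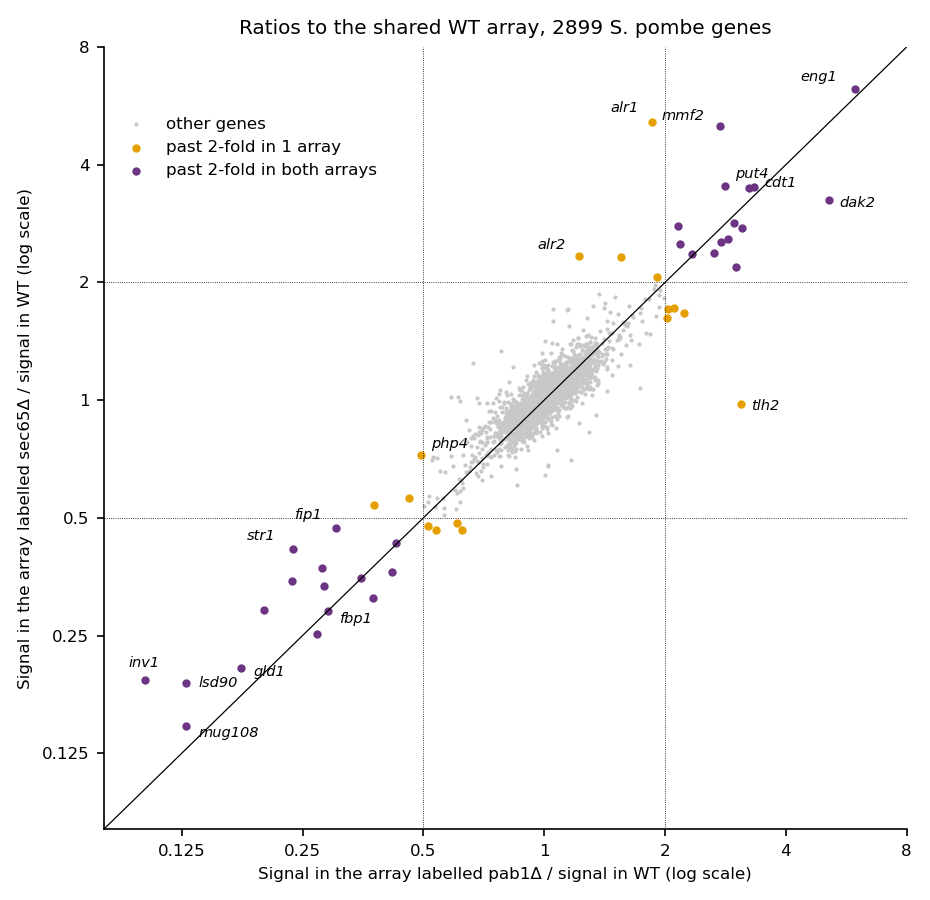
Ratio of the signal to WT for 2899 genes in the *pab1*Δ-labelled array (x axis) and in the *sec65*Δ-labelled array (y axis), both on log scales. The line marks equal ratios and dotted lines mark 2-fold. The 31 genes past 2-fold in both arrays lie in the upper right and lower left, and *tlh2* and *alr1* lie farthest from the line.

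Among the genes higher in both arrays were 3 that act in separating daughter cells. *eng1*, which encodes the endo-glucanase that dissolves the primary septum, had a signal of 2481 in the *pab1*Δ-labelled array and 2611 in the *sec65*Δ-labelled array, against 418 in WT. These were 5.94 and 6.25 times WT, the highest ratio of all genes in each of the 2 arrays. The other 6 deletions ranged from 1.12 to 5.69 times WT and so lay below both. *adg1*, a gene for a cell surface glycoprotein, had signals of 4563 under *pab1*Δ and 4919 under *sec65*Δ, against 1412 in WT. *adg2*, which also encodes a cell surface glycoprotein, had 2214 and 2117 under the same labels, against 744 in WT. For *adg1* and *adg2*, 1 of the other 6 deletions lay above both arrays. RNA came from whole cultures, so more cells at a stage of the cycle and more RNA per cell cannot be told apart.

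Of 9 measured genes of the cell separation list, 5 were past 1.5-fold above WT in both arrays, and the list's median ratio was 1.87 in the *pab1*Δ-labelled array and 1.73 in the *sec65*Δ-labelled array, beside 1.01 and 1.02 over all genes. Over all 2869 genes measured in both arrays, 45 (1.57%) were past 1.5-fold above WT in both. The 5 were *eng1*, *adg1*, *adg2*, *adg3* (1.87 and 1.92) and *mid2* (1.93 and 1.73), an anillin-like gene needed to organise septins. The genes for the forkhead transcription factors *fkh2* and *sep1* were near WT, at 1.01 and 1.04 in the *pab1*Δ-labelled array and 1.03 and 0.983 in the *sec65*Δ-labelled array. The MADS-box gene *mbx1* stood at 0.774 in both. *agn1*, the glucanase gene for the septum edge, had no named probe set and was not analysed here.

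Genes that build the ring and septum lay within 1.5-fold of WT. None of 33 genes of the contractile ring and septum list was past 1.5-fold in either array, and the medians were 1.05 in the *pab1*Δ-labelled array and 1.08 in the *sec65*Δ-labelled array. Over all genes 4.39% were past 1.5-fold in the *pab1*Δ-labelled array (2.13% above and 2.26% below WT) and 3.9% in the *sec65*Δ-labelled array (2.16% above and 1.74% below), so a list of this size with none, here and for the lists that follow, is near the background. The highest were *chs2* (1.44 and 1.31), *blt1* (1.37 and 1.33), *fic1* (1.35 and 1.35) and *cdc15* (1.21 and 1.39), the F-BAR protein of the ring. The lowest was *bgs1*, the glucan synthase of the primary septum, at 0.679 and 0.699. Of 18 genes of the septation initiation network, the kinase cascade that triggers septation, and its inhibitory phosphatase, only *pab1* itself was past 1.5-fold, in the *pab1*Δ-labelled array. The network's GTPase *spg1* stood at 0.849 and 0.895, its kinase *cdc7* at 0.902 and 0.892, and *sid2* at 1.30 and 1.24.

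A second group of 4 genes higher in both arrays acts in DNA replication. *cdt1*, which loads the replicative helicase at origins, had signals of 629 in the *pab1*Δ-labelled array and 661 in the *sec65*Δ-labelled array, against 189 in WT, and both were above the other 6 deletions (1.71 to 3.00 times WT). *cdm1*, a small subunit of DNA polymerase delta, had 654 and 581 under the same labels, against 210.3 in WT, and here too both lay above the other 6 (1.26 to 2.18). *cdc22*, the large subunit of ribonucleotide reductase, had 3700.2 and 3417, against 1345 in WT. *cdt2*, part of the ubiquitin ligase that destroys Cdt1, had 1197 under *pab1*Δ and 871 under *sec65*Δ, against 398 in WT, and was the one of the 4 with the wider gap between the 2 arrays. For *cdc22* and *cdt2*, at least 1 of the other 6 deletions lay above both arrays.

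Of 20 measured genes of the MBF list, 3 were past 2-fold above WT in the *pab1*Δ-labelled array, 4 in the *sec65*Δ-labelled array and 9 past 1.5-fold in each, with none past either fold below WT. Over all genes, 0.697% and 0.661% were past 2-fold above WT in the *pab1*Δ- and *sec65*Δ-labelled arrays, and 2.13% and 2.16% past 1.5-fold. The list's median ratios were 1.37 and 1.33. *cdc18*, the partner of Cdt1 at origins, had signals of 985 under *pab1*Δ and 1032 under *sec65*Δ, against 522 in WT, ratios of 1.89 and 1.97 that stayed under 2-fold. The G1/S cyclin gene *cig2* stood at 1.78 and 1.81, the histone gene activator *ams2* at 1.99 and 1.82, and *rep1*, an activator of MBF in meiosis, at 1.91 and 2.06. *mik1*, whose product inhibits Cdc2, did not exceed background in WT, so its ratios of 1.74 and 1.67 are lower bounds. Genes for MBF itself were near WT, with *cdc10* at 0.949 and 0.967 and *res1* at 0.911 and 0.947. Of the 10 histone genes, 8 were above WT in both arrays, beside 1351 of all 2899 genes (46.6%), with medians of 1.31 and 1.26, and *hhf3* was the highest at 1.84 and 1.48. Probe sets of histone genes can share near-identical sequence, so single copies are uncertain.

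Of 53 genes of the DNA replication list, *cdm1* alone was past 2-fold in either array. Over all genes, 0.661% to 0.697% were past 2-fold in each direction, so 1 of 53 is near the background. The list's medians were 1.08 in the *pab1*Δ-labelled array and 1.07 in the *sec65*Δ-labelled array. *rad2*, the flap endonuclease, stood at 1.65 and 1.65. *cbp1*, formerly *abp1*, which encodes an origin-binding CENP-B homologue, was the lowest at 0.518 and 0.568, and *abp2* was at 0.802 and 0.911. *sap1* (1.41 and 1.44), *rfc3* (1.27 and 1.30) and *ssb3* (1.30 and 1.20) were within 1.5-fold of WT. None of 38 genes of the DNA damage checkpoint and repair list was past 1.5-fold in either array, where the medians were 1.02 and 1.07. *rad3*, the checkpoint kinase, stood at 1.05 and 1.04, its effectors *chk1* at 1.10 and 1.10 and *cds1* at 1.01 and 1.09.

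*slp1*, the activator of the anaphase-promoting complex, was the only one of 36 genes of the mitotic list past 1.5-fold in either array. Its signals were 726 in the *pab1*Δ-labelled array and 834 in the *sec65*Δ-labelled array, against 333 in WT. Over all genes, 4.39% were past 1.5-fold in the *pab1*Δ-labelled array and 3.9% in the *sec65*Δ-labelled array, so 1 of 36 is near the background. The Aurora kinase gene *ark1* stood at 1.29 and 1.47, the cyclin gene *cdc13* at 1.25 and 1.18, and the Polo kinase gene *plo1* at 0.730 and 0.878. On the chromosome *slp1* lies next to *eng1*.

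The genes tied to the functions of the deleted pair themselves stayed near WT. Of 11 genes of PP2A and related phosphatases, none but *pab1* was past 1.5-fold, and the other regulatory subunit genes *par1* and *par2* stood at 0.979 and 1.01 in the *pab1*Δ-labelled array, beside 0.879 and 1.00 in the *sec65*Δ-labelled array. *cek1*, a kinase gene of the pathway that inhibits PP2A, was at 0.746 and 0.903. Of 6 genes of the signal recognition particle and its receptor, *sec65* was the lowest in the *sec65*Δ-labelled array, and the other 5 ranged from 1.02 to 1.17 there. None of 13 ER translocon genes or of 9 genes for ER chaperones and the unfolded protein response was past 1.5-fold in either array. *sec61*, the channel itself, stood at 1.28 and 1.20, the chaperone gene *bip1* at 0.991 and 1.01, and the ER stress sensor gene *ire1* at 1.04 and 1.11.

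The next group of genes higher in both arrays serves the uptake and breakdown of nutrients. *put4*, a proline permease gene, had signals of 5423 in the *pab1*Δ-labelled array and 6767 in the *sec65*Δ-labelled array, against 1922 in WT, and both lay above the other 6 deletions (0.644 to 2.67 times WT). *isp5*, an amino acid permease gene induced in nitrogen starvation, had 5498 and 7127 under the same labels, against 2558 in WT. In the other 6 deletions *isp5* ranged from 0.187 to 4.67 times WT, so some were far below the pair and some above. Of 23 genes of the nitrogen starvation list, 4 were past 1.5-fold above WT in the *pab1*Δ-labelled array and 6 in the *sec65*Δ-labelled array, beside 2.13% and 2.16% of all genes, while the list medians of 1.04 and 1.07 lay near those of all genes. They included the ammonium transporter gene *amt1* at 1.74 and 1.72 and the oligopeptide transporter gene *isp4* at 1.53 and 1.66. *mmf2*, which lies next to *isp5*, had 3612 under *pab1*Δ and 6609 under *sec65*Δ, against 1318 in WT.

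Genes of carbon metabolism moved in both directions. *dak2*, a dihydroxyacetone kinase gene of glycerol breakdown, had signals of 6366 under *pab1*Δ and 4030.4 under *sec65*Δ, against 1243 in WT. *mal1*, which encodes an alpha-glucosidase, had 722 and 651, against 252 in WT, both above the other 6 deletions (0.735 to 2.28 times WT). *mel1*, the secreted alpha-galactosidase gene, had 353 and 358, against 151 in WT. Lower in both arrays was *inv1*, the secreted invertase gene, with 889 under *pab1*Δ and 1696 under *sec65*Δ, against 8785 in WT. It was 0.101 and 0.193 times WT, the lowest ratio of the *pab1*Δ-labelled array. *gld1*, a glycerol dehydrogenase gene, had 1098 and 1294, against 6266 in WT. *fbp1*, the fructose-1,6-bisphosphatase gene of gluconeogenesis that glucose represses, had 464 and 462, against 1598 in WT, and the 2 arrays were nearly equal. *gut2*, a mitochondrial glycerol-3-phosphate dehydrogenase gene, stood at 0.283 and 0.334 times WT, and the hexose transporter genes *ght4* and *ght1* at 0.373 and 0.417 under *pab1*Δ and 0.311 and 0.364 under *sec65*Δ.

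Over all 31 genes of the hexose and glucose list, 2 were past 2-fold above WT and 6 below it in each array. Over all genes, 0.661% to 0.697% were past 2-fold in each direction. The list's medians were 0.855 in the *pab1*Δ-labelled array and 0.878 in the *sec65*Δ-labelled array, beside 1.01 and 1.02 over all genes. The glycolytic genes did not move with them, as *tpi1*, *fba1*, *pgk1*, *gpm1* and *pyk1* ranged from 0.953 to 1.06 over both arrays. *eno102*, a second enolase gene, was lower at 0.535 and 0.533. The main high-affinity glucose transporter gene *ght5* stood at 0.770 and 0.750. In the other 6 deletions *gut2* ranged from 0.129 to 0.832 times WT, below it in all 6, *inv1* ranged from 0.0242 to 1.09, *fbp1* from 0.183 to 5.05 and *ght1* from 0.337 to 8.86 times WT.

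Several genes for taking up iron were lower in both arrays, and lower still in the *pab1*Δ-labelled array, but the other 6 deletions were often as low. Their median ratio to WT was 0.193 for *fio1*, 0.268 for *fip1* and 0.213 for *fet4*, and against that median the ratios of these 3 genes were above 1 in both arrays. *fio1*, the multicopper oxidase gene of high-affinity iron uptake, had signals of 412 under *pab1*Δ and 597 under *sec65*Δ, against 2051 in WT. Its partner, the permease gene *fip1*, which lies next to it, had 1144 and 1781, against 3773 in WT. *str1*, a siderophore transporter gene, had 844 and 1489, against 3568 in WT, and *fet4*, a low-affinity metal transporter gene, 522 and 762, against 2215 in WT. *frp1*, a ferric reductase gene, and *php4*, whose product represses iron-using genes when iron is scarce, were past 2-fold only in the *pab1*Δ-labelled array, at 0.376 and 0.493 times WT, beside 0.540 and 0.726 under *sec65*Δ. The zinc-binding metallothionein gene *zym1* went the other way round, with 0.607 under *pab1*Δ and 0.486 under *sec65*Δ. The list of 24 genes also held copper and zinc genes, *zym1* among them, and its median was 0.912 in both arrays. Of its genes, 6 were past 2-fold below WT in the *pab1*Δ-labelled array, 5 in the *sec65*Δ-labelled array and none above. Over all genes, 0.662% and 0.696% were past 2-fold below WT in the same arrays. The copper transporter gene *ctr4* stood at 1.39 and 1.40, and the gene of the iron-sensing repressor *fep1* at 1.07 and 1.21.

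Further genes lower in both arrays belong to stress responses. *lsd90* had signals of 823 in the *pab1*Δ-labelled array and 1218 in the *sec65*Δ-labelled array, against 6432 in WT. *hsp16*, a small heat-shock protein gene, had 6177 and 6219, against 17699 in WT. *pyp2*, the phosphatase gene that shuts off the stress kinase Sty1, had 639.8 and 855, against 2292 in WT. Most of the 40 stress genes did not follow, since the medians were 0.923 and 0.977. Past 2-fold below WT were 3 genes in the *pab1*Δ-labelled array and 4 in the *sec65*Δ-labelled array, with none above. Over all genes, 0.662% and 0.696% were past 2-fold below WT in the same arrays. *ssa1*, a heat-shock chaperone gene, stood at 0.528 and 0.714, the catalase gene *ctt1* at 0.820 and 0.797, the stress kinase gene *sty1* at 1.09 and 1.18 and the stress transcription factor gene *atf1* at 0.954 and 0.844. The remaining genes lower in both were *mug108* (618 and 708, against 4828 in WT) and *mug14* (947 and 882, against 3488 in WT), both named for induction in meiosis. *bgl2*, a cell wall glucan-modifying enzyme gene, had 3481 and 3506, against 8141 in WT.

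**Figure D3:**
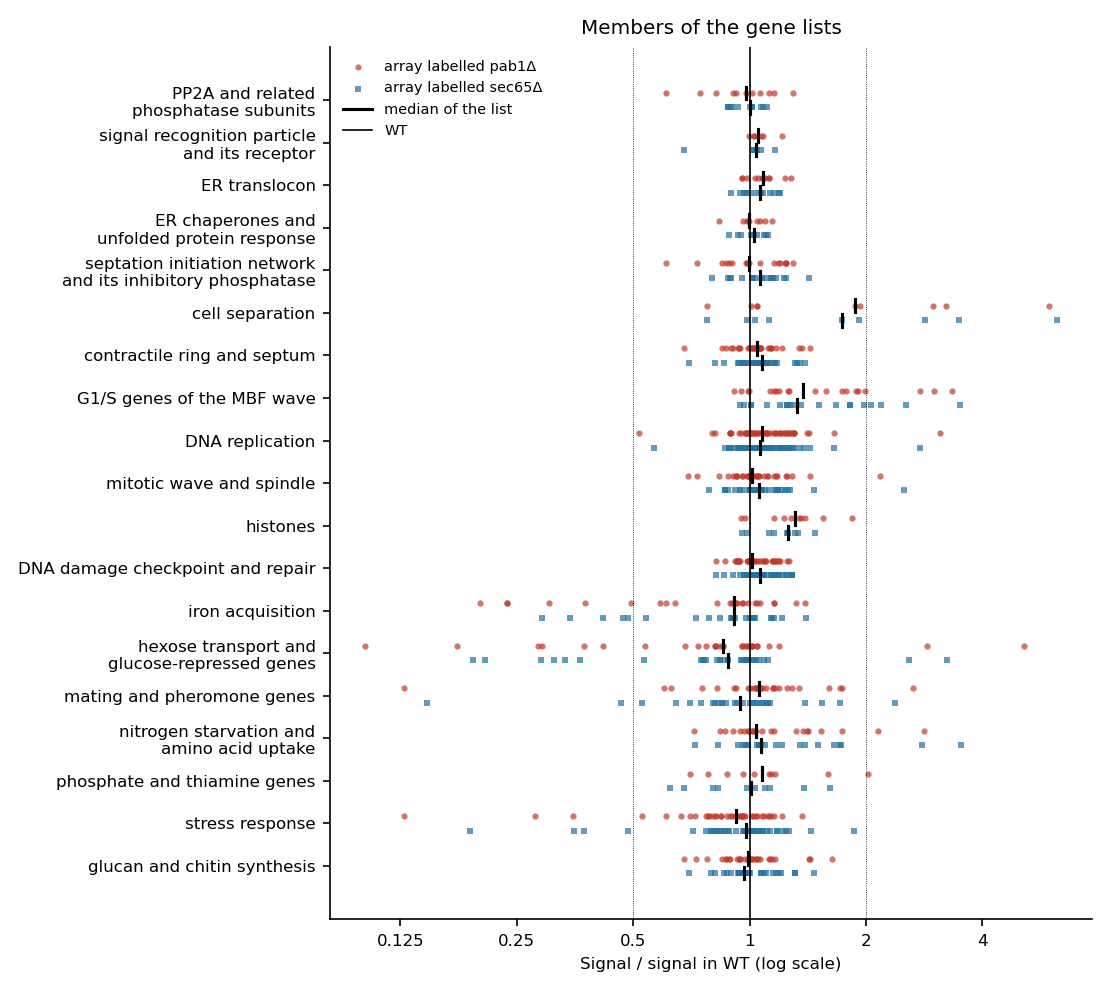
Ratio of the signal to WT (x axis, log scale) for the measured members of 19 gene lists (y axis), in the *pab1*Δ-labelled array (red circles) and in the *sec65*Δ-labelled array (blue squares), with the list median as a black bar. The cell separation list has medians of 1.87 and 1.73, and the ER translocon list 1.08 and 1.07.

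Most of the 31 shared genes had like values in some of the other 6 deletions. All 15 genes higher in both arrays were also past 2-fold above WT in at least 1 of the other 6 deletions. All 16 lower genes were past 2-fold below WT in at least 1. However, 2 of the 15 and 4 of the 16 were past 2-fold the other way in at least 1 of these 6. All these ratios have the same WT array, and no such counts were made for all genes. Over all 2869 genes, 81 (2.82%) lay above all 6 others in both arrays and 50 (1.74%) below. Of the 15 higher genes, 5 lay above all 6, namely *eng1*, *cdt1*, *cdm1*, *mal1* and *put4*, and of the 16 lower genes none lay below all 6. When the median of the other 6 deletions took the place of the WT array, 5 genes were at least 2-fold higher and 13 at least 2-fold lower in both arrays. Only 1 of these 5 and 4 of these 13 were among the 31: *put4*, *fbp1*, *ght1*, *inv1* and *mug14*. Against this median *fio1*, *fip1*, *fet4*, *hsp16* and *pyp2* lay above 1 and *mfm2* below 1 in both arrays, the opposite of their direction against WT. The cell separation list then had medians of 1.30 under *pab1*Δ and 1.17 under *sec65*Δ, the MBF list 1.11 and 1.10 and the mating list 0.756 and 0.717.

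**Figure D4:**
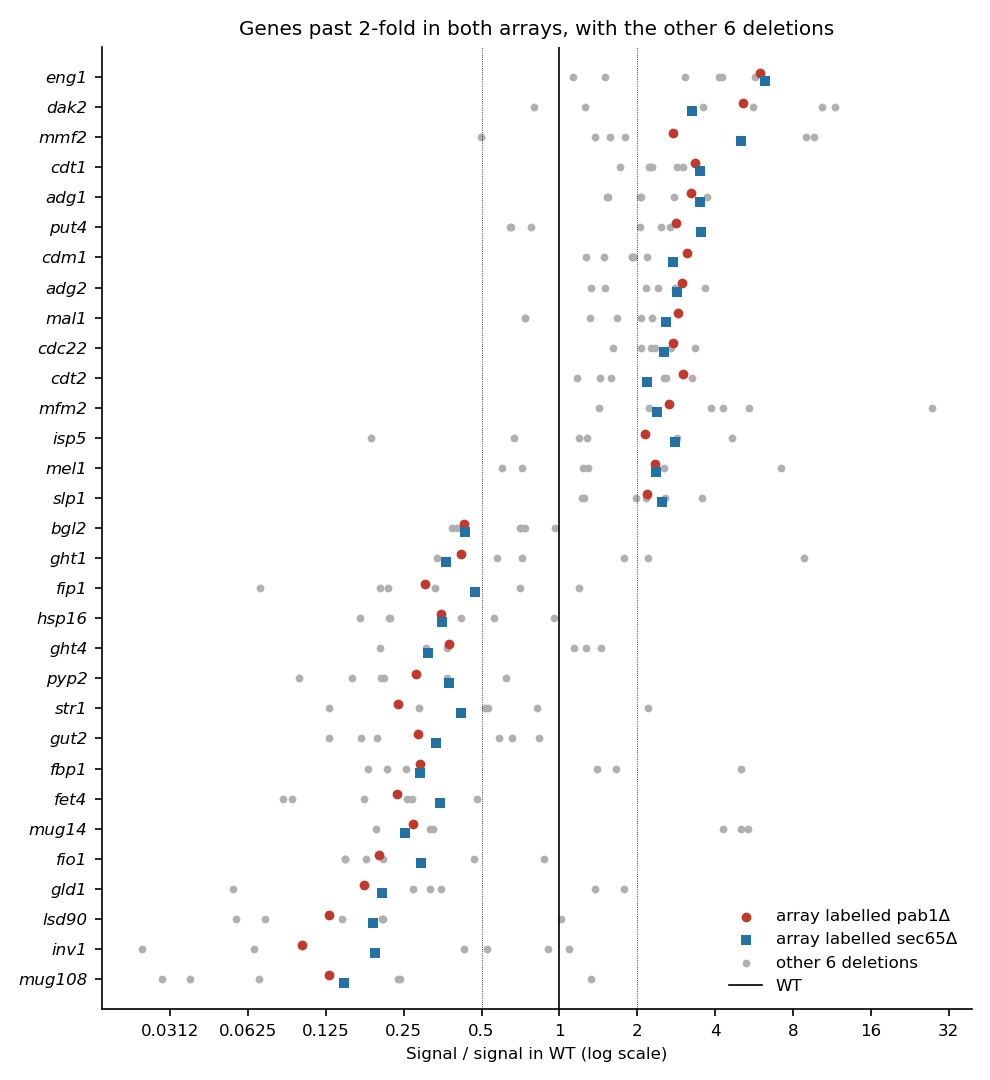
Ratio of the signal to WT (x axis, log scale) for the 31 genes past 2-fold in both arrays (y axis), in the *pab1*Δ-labelled array (red circles), in the *sec65*Δ-labelled array (blue squares) and in the other 6 deletions (grey). The pair lies above the grey points for *eng1* (5.94 and 6.25, against at most 5.69) and within their range for *inv1*.

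Of the 9 lower genes not shared with the WT comparison, *map1*, *map2*, *map3*, *spk1*, *ste11* and *isp3* belong to the mating list. *map2*, the P-factor pheromone gene, had signals of 171 under *pab1*Δ and 139 under *sec65*Δ, beside a median of 1240 (range 125 to 12858) in the other 6 deletions, and 99.7 in WT. *ste11*, the master activator of mating genes, had 1744 and 1523 under the same labels, beside a median of 4316 (range 908 to 7591) and 2896 in WT. *spk1*, the pheromone-response MAP kinase gene, had 701 and 487, beside a median of 1987 (range 319 to 4925) and 652 in WT. In each of these genes the 6 others overlapped the pair, so the difference is one of the median and not of every deletion. Of 28 mating genes, 1 was past 2-fold above WT in each array, the M-factor gene *mfm2*, with 289 and 259.7, against 109 in WT, where 4 of the other 6 lay above both. Past 2-fold below WT were *mug108* in both arrays and *mei2* in the *sec65*Δ-labelled array, and over all genes 0.661% to 0.697% were past 2-fold in each direction.

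The *pab1*Δ-labelled array was also compared directly with the *sec65*Δ-labelled array, without WT. At 2-fold, 1 of 2873 genes (0.0348%) was higher in the *pab1*Δ-labelled array and 1 (0.0348%) lower. At 1.5-fold, 8 genes (0.278%) were higher and 13 (0.452%) lower, and *pab1* and *sec65* were among these 21. *pab1* had the 9th lowest ratio of *pab1*Δ over *sec65*Δ among the 2899 genes (0.599), and *sec65* the 7th highest (1.51). Of the 31 genes shared against WT, 5 were past 1.5-fold between the 2 arrays: *dak2* was higher under *pab1*Δ, and *mmf2*, *inv1*, *str1* and *fip1* were lower there. No gene of the 31 was past 2-fold between them.

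**Figure D5:**
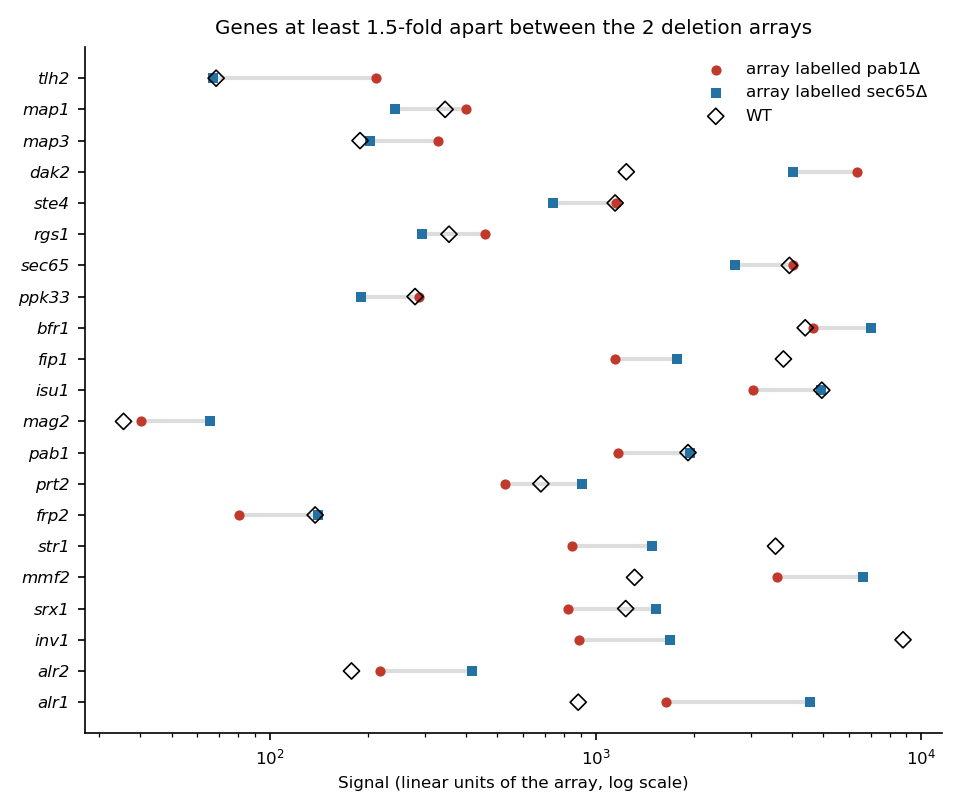
Signal (x axis, log scale) of the 21 genes at least 1.5-fold apart between the *pab1*Δ-labelled array (red circles) and the *sec65*Δ-labelled array (blue squares), with WT as open diamonds, from the highest ratio at the top to the lowest. *tlh2* at the top has 212 and 66.9, and *alr1* at the bottom 1640.4 and 4554.

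The gene lower by 2-fold was *alr1*, which encodes an alanine racemase. Its signal was 1640.4 in the *pab1*Δ-labelled array and 4554 in the *sec65*Δ-labelled array, against 885 in WT, a ratio of 2.78 for *sec65*Δ over *pab1*Δ. The other 6 deletions ranged from 434 to 985, so both arrays lay above all of them, and the *sec65*Δ-labelled array was the highest by far. A second alanine racemase gene, *alr2*, had 217 under *pab1*Δ and 418 under *sec65*Δ, against 178 in WT, but here the other 6 ranged from 100.1 to 1334 and overlapped the pair. The gene higher by 2-fold under *pab1*Δ was *tlh2*, a helicase gene at a chromosome end, with 212 under *pab1*Δ and 66.9 under *sec65*Δ, against 68.5 in WT. It has near-identical copies at other chromosome ends and 4 probe sets that differ: the mean of the 4 gave a ratio to WT of 2.46 under *pab1*Δ and a ratio of 1.93 between the 2 arrays, so the copy is uncertain.

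Of the 16 genes past 2-fold against WT in 1 array alone, 15 were on the same side of WT in the other array. Over all 2899 genes, 1351 were above WT and 1028 below it in both arrays, and both ratios have the same WT array. In the other array 13 of the 16 were also past 1.5-fold the same way. Most thus lay just past the 2-fold threshold in one array and just short of it in the other. *csx1*, the gene of an RNA-binding protein of the oxidative stress response, is an example, at 0.513 under *pab1*Δ and 0.478 under *sec65*Δ. *bsu1*, a vitamin transporter gene, stood at 2.03 and 1.62. *alr1* itself was past 2-fold in the *sec65*Δ-labelled array alone, at 5.14 times WT, beside 1.85 under *pab1*Δ. The gene on the other side of WT was *tlh2*, at 3.10 under *pab1*Δ and 0.977, close to WT, under *sec65*Δ.

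Mating genes were among those with higher signals under *pab1*Δ than under *sec65*Δ. *map1*, a mating-type transcription factor gene, had 402 under *pab1*Δ and 243 under *sec65*Δ, against 346 in WT, so that WT lay between the 2. *map3*, the M-factor receptor gene, had 328 and 204, against 189 in WT. *ste4*, an adaptor of the pheromone MAP kinase cascade, had 1152 and 740.0, against 1149 in WT, and *rgs1*, which damps pheromone signalling, 458 and 294, against 355 in WT. *mei2*, the RNA-binding protein gene that starts meiosis, stood at 0.625 under *pab1*Δ and 0.466 under *sec65*Δ, past 2-fold below WT under *sec65*Δ only. Over the whole mating list, 22 of 28 genes were higher under *pab1*Δ than under *sec65*Δ, with a median ratio of 1.11, beside 1422 of 2897 genes and a median of 0.999 in the series' named genes. Exceptions were *mfm3*, an M-factor gene, with ratios to WT of 1.15 under *pab1*Δ and 1.71 under *sec65*Δ, and *mei3* with 0.756 and 0.930.

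Iron and redox genes were among those with lower signals under *pab1*Δ. *srx1*, the sulfiredoxin gene, had 825 under *pab1*Δ and 1537 under *sec65*Δ, against 1238 in WT, and WT lay between the 2. *isu1*, the scaffold gene of iron-sulfur cluster assembly, had 3047 and 4922, against 4949 in WT, and it lies 6 protein-coding genes from *pab1* on the chromosome. *frp2*, a second ferric reductase gene, had 80.8 and 140.3, against 138 in WT. The ratio of *pab1*Δ over *sec65*Δ was 0.567 for *str1*, 0.642 for *fip1*, 0.680 for *php4*, 0.685 for *fet4*, 0.689 for *fio1* and 0.696 for *frp1*. On the whole iron list, 14 of 24 genes were lower under *pab1*Δ and 10 higher, beside 1475 and 1422 of 2897 named genes. The list's median ratio was 0.950, beside 0.999 over all genes, so the difference lay in part of the list. Of the stress list, 29 of 40 genes were lower under *pab1*Δ and 11 higher, beside the same 1475 and 1422 of 2897 named genes. Its median ratio was 0.944, with *srx1* as the lowest. *bfr1*, a drug efflux transporter gene, had 4639.6 and 7023, against 4401 in WT. *prt2*, a long noncoding RNA gene, had 529 and 909.5, against 679.7 in WT. *mag2*, a DNA glycosylase gene, was near background, with 40.4 and 65.5, while WT at 35.6 was below it.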

How the data were processed

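Total RNA of exponentially growing cells was labelled with biotin and hybridised to Affymetrix Yeast Genome 2.0 arrays, 1 array for each of 8 deletions and WT. The values deposited by the authors were log2 signals of single arrays. The submitters' processing notes name MAS5 without its role, the methods give only the company that analysed the data, and neither gives the scaling. The values were not normalized again, and all 9 columns were mapped to samples.

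Entrez IDs of the array annotation, or symbols for retired IDs, were matched to the RefSeq assembly ASM294v3, which served for names and gene order only. Of 10928 probe sets, 213 were controls, 5177 had no symbol and 20 had several; 1 probe set was used per gene, by type and then by mean signal. Background was the 95th percentile of 2601 probe sets with symbols that matched no *S. pombe* gene (*S. cerevisiae* genes), a signal of 36.2 to 40.2; lower signals were raised to it, and 2855 to 2872 genes lay above it on an array. With 1 array per genotype, ratios were described without a test, p-value or error. The number of arrays limits the precision.

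Genes to be named were the 10 highest and 10 lowest by the smaller of both ratios to WT and by the ratio between the 2 deletion arrays, those on opposite sides of WT, the deleted genes and their neighbours, genes the study lists, and members of 20 gene lists. Genes counted as past 2-fold were named too, a choice made after their values were seen. The members and lists were chosen with earlier results of these data known, and 12 list entries whose symbol now names another gene or role were removed after matching. Ratios were recomputed with quantile normalization or scaling to a common median; without the floor, with a pseudocount of 50, with background required in both arrays or set at the 99th percentile; at thresholds of 3 and 1.5; with the mean of a gene's probe sets; and against the median of the other 6 deletions instead of WT. The comparison of arrays in pairs and the gene order were added after the data had been seen. The calling was tested on simulated data with planted changes of 3-fold or more in genes of high signal. The simulated noise came from the difference between the 2 deletion arrays, which was smaller than that against WT. The simulation therefore says little about calls near 2-fold against WT. Python 3.11.15, numpy 2.4.6, pandas 2.3.3 and matplotlib 3.10.9 were used.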

Additional observations from a re-analysis of the deposited data

Results flagged for a closer look

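*tlh2* was at 3.10 times WT under *pab1*Δ but close to WT under *sec65*Δ, at 0.977. A further probe set of the gene had 166 under *pab1*Δ, 46.5 under *sec65*Δ and 48.3 in WT. Another had 301, 193 and 118, above WT under both labels, and the last was near background. The difference was not tested, since each genotype had 1 array.

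A reporter control probe set of the array, with no target given for it, was used in no comparison. Its signal was 4632 under *pab1*Δ and 5401 under *sec65*Δ, while the other 6 deletions had 6907 to 13657 and WT 20.8, below background. It was the only one of 47 reporter probe sets above background in all 8 deletions and not in WT.

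Among 5177 probe sets without a gene symbol, of either yeast, 24 exceeded WT by 2-fold or more in both arrays and 27 fell short of it by as much. Between the 2 arrays, 3 were at least 2-fold higher under *pab1*Δ than under *sec65*Δ and 10 lower.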

How the results depend on the processing

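Median scaling, quantile normalization, no floor, background in both arrays and background at the 99th percentile left all 8 counts within 1.5 times, and so did a pseudocount of 50. The threshold moved them. At 3-fold, 7 genes were higher and 12 lower than WT under *pab1*Δ, 7 higher and 8 lower under *sec65*Δ, 4 higher and 7 lower in both, and 0 lower under *pab1*Δ than under *sec65*Δ. At 1.5-fold these were 61 and 65, 62 and 50, and 45 and 43, and 8 genes were higher and 13 lower under *pab1*Δ than under *sec65*Δ. With the mean of all probe sets, 0 genes were 2-fold higher under *pab1*Δ than under *sec65*Δ, since *tlh2* then stood at 1.93.

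The reference changed which genes were called and the direction of some ratios. With the median of the other 6 deletions in place of WT, 6 genes were higher under *pab1*Δ, 9 under *sec65*Δ and 5 in both. The 15, 16 and 13 lower genes included 5, 5 and 4 of those called against WT. Of 64 ratios of the 31 shared genes, *alr1* and *tlh2*, 15 then changed direction and the other 49 moved in size. Under *pab1*Δ the ratio became 1.11 for *fet4*, 1.04 for *fio1*, 1.13 for *fip1*, 1.15 for *hsp16*, 1.35 for *pyp2* and 0.649 for *mfm2*. Under *sec65*Δ it became 1.61, 1.51, 1.76, 1.16, 1.80 and 0.583 for the same genes, 0.720 for *dak2*, 1.10 for *lsd90* and 1.14 for *mug108*. Each of the other 49 ratios moved by more than 0.141 log2 units, the SD of the log2 ratio between the 2 arrays. Under *pab1*Δ and *sec65*Δ, *eng1* went from 5.94 and 6.25 to 1.67 and 1.76. In the same arrays *cdt1* went from 3.33 and 3.50 to 1.47 and 1.55. Some moved away from 1, such as *ght1*, which went to 0.370 and 0.323. The cause was not tested.

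No paired analysis was possible because each genotype had 1 array. There was no replicate to leave out, so the spread between cultures is unknown, and signals near background, such as those of *mag2* and *mik1*, limit their ratios.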

Other observations

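By the order of protein-coding genes, 6 of the 15 genes higher in both arrays (40.0%) lay within the outer 50 genes of a chromosome end, namely *dak2*, *mel1*, *put4*, *mmf2*, *isp5* and *mal1*, beside 2 of the 16 lower genes (12.5%) and 87 of 2899 named genes (3.00%). Within the outer 25 genes the counts were 2, 0 and 29, and within the outer 100 they were 6, 4 and 240; these limits were chosen after the values were seen, and no test was made.

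Among the genes past 2-fold in at least 1 of the 2 arrays, 6 pairs were neighbours on the chromosome. No such count was made for all genes, so this number has no background beside it. *slp1* and *eng1*, *isp5* and *mmf2*, and *pcm2* and *mel1* were higher together, and *fip1* and *fio1* lower together. In the run *mal1*, *ght4*, *frp1*, whose pairs share *ght4*, the first gene was higher and the others lower. *mal1*, *mel1*, *isp5* and *mmf2* are also among the genes near chromosome ends named above, so these observations overlap.

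The strain marker genes that the WT genotype names were close to WT in both arrays, with *ura4* at 1.06 under *pab1*Δ and 1.19 under *sec65*Δ, *leu1* at 1.02 and 0.987 and *ade6* at 0.980 and 0.995. The *ura4* signals were low in each array, at 70.0 under *pab1*Δ, 78.1 under *sec65*Δ and 65.7 in WT, which limits its ratios. These ratios do not show which alleles the deletion strains carry.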
